A study of Amorphotheca resinae with 20 samples.

Results

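These results concern 23 genes of the filamentous fungus Amorphotheca resinae ZN1 whose read counts were lower under acetic acid and under formic acid than in the weak acid control, out of 18830 identifiers counted. Each gene was chosen from the counts themselves. Counts were turned into CPM, the reads of a gene per 1000000 reads of its library, and a log2 ratio was formed as log2((mean CPM with the inhibitor + 1)/(mean CPM of its own control + 1)). A gene was a member if both acid ratios were at or under -1.5 and if its largest ratio in size, over 7 inhibitors, was with one of the acids. A total of 29 genes had both acid ratios at or under that threshold, and 6 of them dropped out because another inhibitor gave a larger change. The largest change was with acetic acid for 11 members and with formic acid for 12. Because these values chose the members, their size and direction against the weak acid control are given as a description. Calls on these contrasts are printed below beside the share of all genes. The choice largely set them, and they are not used as a test.

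All 20 libraries came from mycelia of the wild type strain ZN1, grown at 28 °C in potato-dextrose medium and collected at 4 h, with 2 libraries in each of 10 groups. In the weak acid experiment mycelia received 2.0 g/L acetic acid or 4.0 g/L formic acid, beside a control with no inhibitor named. The furan experiment compared 1.0 g/L furfural and 1.0 g/L 5-hydroxymethylfurfural (HMF) with its own control. A further experiment used the phenolic aldehydes vanillin, syringaldehyde and 4-hydroxybenzaldehyde at 0.1 g/L and again its own control. These compounds arise when plant biomass is pretreated for fermentation, and this fungus is studied because it degrades them. The 2 acids were given at different doses, so a difference between them is one between those treatments and not between the acids at a matched dose.

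Acetic acid and formic acid are small carboxylic acids that cross the plasma membrane in their undissociated form and release protons in the more neutral cytosol. Fungal cells meet the load by pumping protons out at the expense of ATP, and the anions that stay behind disturb metabolism further. Formic acid is the stronger acid and inhibits the respiratory chain, whereas acetate can be activated to acetyl-CoA and used as carbon. None of the 23 identifiers is paired with a gene name, a product or a sequence in the files used here, so no role is given for any of them and they are described by their levels alone. For the same reason the labelled tissue could not be checked against marker genes.

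Library totals ran from 11601181 to 26106956 counts, and from 16430097 to 20189482 in the weak acid experiment. The labels say that assays were done in duplicate and not whether duplicates were separate cultures, so p-values measure only the spread between these libraries, which may be technical. A lower CPM is a smaller share of a library's reads: fewer cells with the transcript, less of it per cell and more RNA from other genes cannot be told apart. CPM is not divided by gene length, so levels of different genes are not ranked against each other. The 3 experiments were deposited as separate tables, and every level set across them below rests on CPM from separately made tables. The weak acid control libraries stood apart from the other controls for these genes, as described after the levels.

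The acid ratios ran from -3.01 to -1.52 with acetic acid (median -1.81) and from -2.81 to -1.51 with formic acid (median -1.71), whereas the medians over all identifiers were 0.00 and -0.06. Both acid libraries lay below both control libraries for 23 of 23 members with each acid. Over all genes that pattern held for 33.4% with acetic acid and 39.8% with formic acid. All 23 members passed the low-count filter in each of the 3 experiments, and edgeR's quasi-likelihood test called 23 lower with each acid, beside 18.3% of all tested genes with acetic acid and 18.8% with formic acid. The rule used these contrasts, and nothing is read from the counts of calls. The acid comparisons share the control libraries, so a low value with one acid and a low value with the other are not separate observations of the control.

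ARZ_6742_T1 and ARZ_118_T1 had the lowest mean ratio of the members. ARZ_6742_T1 had 35.8 and 24.5 CPM with acetic acid and 51.0 and 46.3 CPM with formic acid, against 204 and 252 CPM in the weak acid control. Its ratios were -2.88 and -2.20. ARZ_118_T1 had 57.2 and 28.5 CPM with acetic acid and 84.8 and 85.9 CPM with formic acid, against 318 and 388 CPM in the control, for ratios of -3.01 and -2.04. In both genes the libraries of acetic acid were the lowest of the 6, and replicate 2 of that acid was the lowest of all. ARZ_18182_T1 was the member with the lowest formic acid ratio, -2.81, beside -2.08 with acetic acid. It had 1.58 and 1.44 CPM with acetic acid and 0.594 and 0.434 CPM with formic acid, against 9.96 and 9.26 CPM in the control, and the formic acid values rest on 12 and 8 reads. ARZ_10760_T1 was also read at few counts, with 2.37 and 2.04 CPM under acetic acid and 7.33 and 5.59 CPM under formic acid, against 17.0 and 23.8 CPM in the control. For 4 members the mean was under 3 CPM with at least 1 acid, and there the added 1 CPM makes the ratio smaller than the fold of the levels.

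Members read at high counts were likewise below the control under both acids. ARZ_7731_T1 had 183 and 149 CPM with acetic acid and 235 and 349 CPM with formic acid, against 707 and 1087 CPM in the control. It had the narrowest gap of the 23, its lowest control library lying 2.02 times above its highest acid library. The widest gap was that of ARZ_18182_T1, at 5.85 times. ARZ_9115_T1 had 134 CPM in both acetic acid libraries and 145 and 141 CPM with formic acid, against 450.1 and 421 CPM in the control. ARZ_11276_T1 had 143 and 108 CPM with acetic acid and 127 and 126 CPM with formic acid, against 431 and 372 CPM in the control. In these 2 genes the acid libraries lay close together whichever acid was given. ARZ_2120_T1 had 76.4 and 75.3 CPM with acetic acid and 83.0 and 104 CPM with formic acid, against 289 and 335 CPM in the control. ARZ_3556_T1 had 74.4 and 56.6 CPM with acetic acid and 89.4 and 115 CPM with formic acid, against 287 and 313 CPM in the control.

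In many members the libraries of the acids overlapped, among them ARZ_11276_T1, ARZ_6829_T1 and ARZ_2033_T1. ARZ_6829_T1 had 76.0 and 54.1 CPM with acetic acid and 59.6 and 64.1 CPM with formic acid, against 319 and 239.7 CPM in the control. ARZ_2033_T1 had 40.7 and 30.3 CPM with acetic acid and 28.4 and 32.3 CPM with formic acid, against 159 and 125 CPM in the control. ARZ_2129_T1 differed from them in that its formic acid libraries were the lower ones: it had 47.0 and 49.7 CPM with acetic acid and 38.0 and 38.3 CPM with formic acid, against 189 and 155 CPM in the control. The control duplicates differed by less than 1.5-fold for 21 of the 23 members. The widest split was that of ARZ_14937_T1, at 59.3 and 30.5 CPM, a fold of 1.94, and ARZ_7731_T1 followed at 1.54. Mean control levels of the members ran from 4.66 to 897 CPM with a median of 146, beside 16.0 for all identifiers, and 20 of the 23 had at least 10 CPM there.

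**Figure D1:**
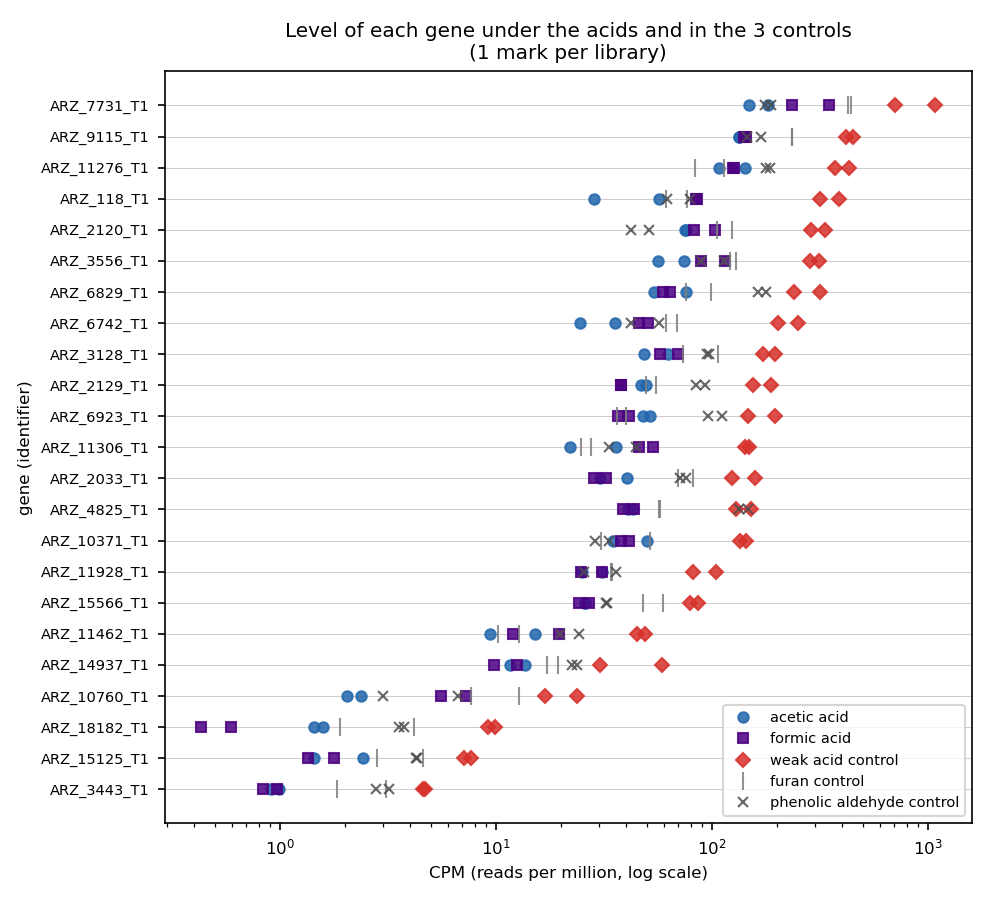
CPM (log axis) of each of the 23 genes, 1 row per gene, with 1 mark per library for acetic acid, formic acid, the weak acid control and the other 2 controls. In every row both red diamonds (weak acid control) lie to the right of the blue and purple acid marks, by at least 2.02 times, while the grey marks of the other controls lie nearer to the acid marks in most rows.

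The weak acid control was higher for these genes than the controls of the other experiments. The summed level of the 23 genes was 4490 and 4739 CPM in the weak acid control, against 1830 and 1675 CPM in the furan control and 1762 and 1563 CPM in the phenolic aldehyde control. With acetic acid the sum was 1198 and 989 CPM and with formic acid 1268 and 1425 CPM. The 18 libraries outside the weak acid control, treated or not, ran from 989 to 1830 CPM. Without ARZ_7731_T1, the member with most reads in that control, its sums were 3783 and 3652 CPM.

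**Figure D2:**
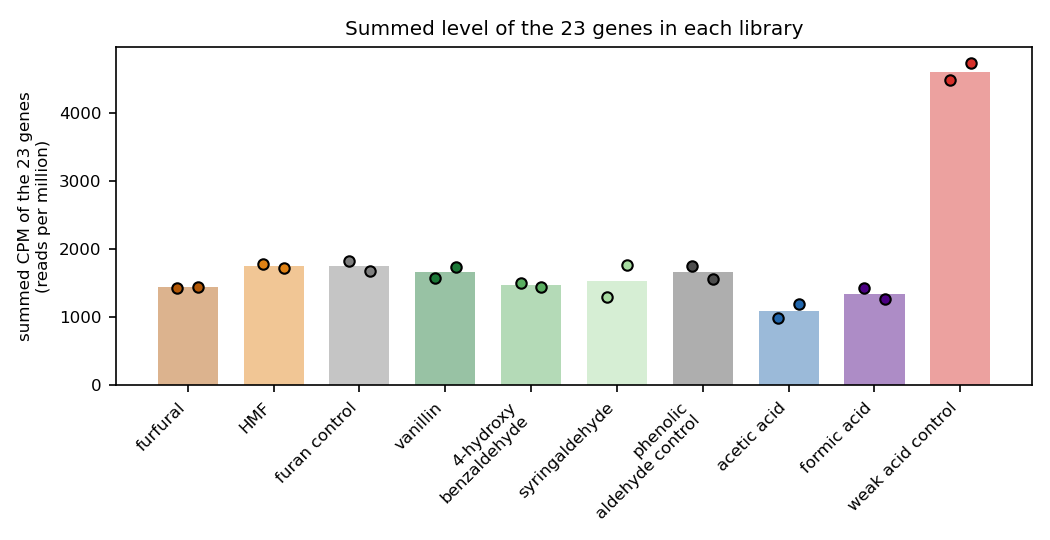
Summed CPM of the 23 genes by group, with bars for the mean of 2 libraries and points for the libraries. The weak acid control stands at 4490 and 4739 CPM and the 18 other libraries lie between 989 and 1830 CPM.

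Gene by gene, both weak acid control libraries lay above all 18 other libraries for 20 of the 23 members, beside 4.53% of all genes. The exceptions were ARZ_2033_T1, ARZ_4825_T1 and ARZ_18182_T1. ARZ_4825_T1 had 152 and 130.1 CPM in the weak acid control, against 147 and 134 CPM in the phenolic aldehyde control and 57.6 and 57.0 CPM in the furan control. Its weak acid control and phenolic aldehyde control libraries overlapped. ARZ_2033_T1 reached 174 and 169.8 CPM with HMF and ARZ_18182_T1 20.4 and 21.8 CPM with HMF, above their weak acid control libraries.

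The mean of the weak acid control was above the means of both other controls for all 23 members, and at least 2-fold above both for 11 of them, beside 1.77% of all genes with 10 CPM there. Relative to the furan control the members' fold had a median of 2.72, from 1.54 (ARZ_15566_T1) to 5.54 (ARZ_11306_T1). At 2-fold or more were 17 members, beside 5.11% of genes with at least 10 CPM in either control. Relative to the phenolic aldehyde control the median was 2.54, from 1.00 (ARZ_4825_T1) to 6.66 (ARZ_2120_T1). At 2-fold or more were 14 members, beside 3.72% of genes with at least 10 CPM in either control. Only 20 of the 23 members had at least 10 CPM in the weak acid control. Over all genes with that level there, the medians of these folds were 0.990 and 0.962. Of genes with at least 10 CPM in either control, the weak acid control was at least 2-fold below the furan control for 4.67% and below the phenolic aldehyde control for 6.27%. The furan control set against the phenolic aldehyde control gave the members a median fold of 0.943, and 18 were within 2-fold. Over genes with at least 10 CPM in either, the furan control was at least 2-fold higher for 2.26% and at least 2-fold lower for 6.59%. The rule used the weak acid control, so members had to be higher there than under the acids. It did not set that control against the other controls. A gene with a high value in that control is still more readily chosen, and these folds carry no test. A property of that control, of its experiment or of its separately made table cannot be told apart with these files.

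Set against the other controls, the acid levels of the members were lower by less. Acetic acid over the furan control had a median fold of 0.616 and over the phenolic aldehyde control 0.580. Formic acid had medians of 0.722 and 0.716. With acetic acid 17 members were below both of these controls, 5 between them and 1 above both. With formic acid 13 were below both, 8 between them and 2 above both. ARZ_10760_T1 under acetic acid had a fold of 0.215 over the furan control, the lowest with that acid, and ARZ_18182_T1 under formic acid a fold of 0.169. ARZ_11306_T1 was at 46.1 and 53.7 CPM with formic acid, against 27.8 and 24.7 CPM in the furan control and 44.8 and 33.5 CPM in the phenolic aldehyde control. With formic acid it was thus above both other controls while below its own. With acetic acid ARZ_10371_T1 was the member with a mean above both other controls, although its libraries overlapped those of the furan control: it had 50.2 and 35.0 CPM with acetic acid, against 51.8 and 30.9 CPM in the furan control and 33.4 and 28.7 CPM in the phenolic aldehyde control. When the furan control replaced the weak acid control in the rule, 57 genes were chosen and 0 of the 23 members were among them. With the phenolic aldehyde control, 339 genes were chosen and 1 member was among them. The other controls belong to other experiments. Members were chosen for lying far below the weak acid control, so a loss of members on a change of control follows in part from the choice. The 23 genes are thus defined relative to the weak acid control libraries, and nothing more is read from these counts. Among the 176 genes with at least 10 CPM in the weak acid control and both acid ratios at or under -1, 71 were at least 2-fold higher there than in both other controls.

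The direct comparison of acetic acid with formic acid was not itself part of the rule, but it rests on libraries that the rule used. Both acid ratios of a member had to be low, which can limit or shift the difference between the acids. The calls, p-values and intervals between the acids are thus conditioned by the choice and are given as a description. Between the acids 7 of 23 members were called at an adjusted p under 0.05 in edgeR's quasi-likelihood test with Benjamini-Hochberg adjustment, 1 higher and 6 lower with acetic acid. That is 30.4% of the members, beside 25.1% of all tested genes, a share close to the background. All tested genes were not limited by the rule in this way, so nothing is read from these shares. The share of all genes takes both directions together. Nothing is therefore read from the split by direction, here or in the comparisons below. ARZ_10760_T1 showed the largest difference, a log2 fold change of -1.62 ± 0.27 (SE, n = 2 libraries each; edgeR adjusted p = 0.000312). ARZ_118_T1 differed by -1.07 ± 0.25 (edgeR adjusted p = 0.0107). These 2 calls held when each library of the acids was left out in turn, although that of ARZ_118_T1 was lost when the 2 acids were fitted without the control (edgeR adjusted p = 0.0597). Without acetic acid replicate 2, the lowest library of that gene, its difference was -0.66, and without acetic acid replicate 1 it was -1.65.

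The other 5 calls were lost when certain single libraries were left out. ARZ_18182_T1 was the member higher with acetic acid, by 1.46 ± 0.39 (edgeR adjusted p = 0.0120), and its call was lost without formic acid replicate 2 or acetic acid replicate 1. The members called lower with acetic acid were ARZ_7731_T1 (-0.89 ± 0.22), ARZ_11306_T1 (-0.86 ± 0.18), ARZ_6742_T1 (-0.77 ± 0.17) and ARZ_3556_T1 (-0.72 ± 0.16), at edgeR adjusted p from 0.00266 to 0.00909. In ARZ_11306_T1 the levels were 36.2 and 22.0 CPM with acetic acid and 46.1 and 53.7 CPM with formic acid, with no overlap. DESeq2 did not call ARZ_7731_T1 (adjusted p = 0.0662). Without acetic acid replicate 2 the number of members called was 4, and without formic acid replicate 2 it was 3.

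The 16 members that were not called had 95% intervals that all lay within a 2-fold difference in either direction, the bounds running from -0.96 to 0.94 on the log2 scale. ARZ_4825_T1 differed by -0.05 (interval -0.34 to 0.25), at 40.8 and 43.4 CPM with acetic acid and 43.9 and 38.8 CPM with formic acid. ARZ_9115_T1 differed by -0.17 (interval -0.46 to 0.12). ARZ_2129_T1 differed by 0.27 (interval -0.03 to 0.57). A miss of the threshold does not show that the acids acted alike on these genes, only that a difference beyond these bounds is outside the interval. The median difference over the 23 members was -0.06 and over all tested genes 0.01.

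**Figure D3:**
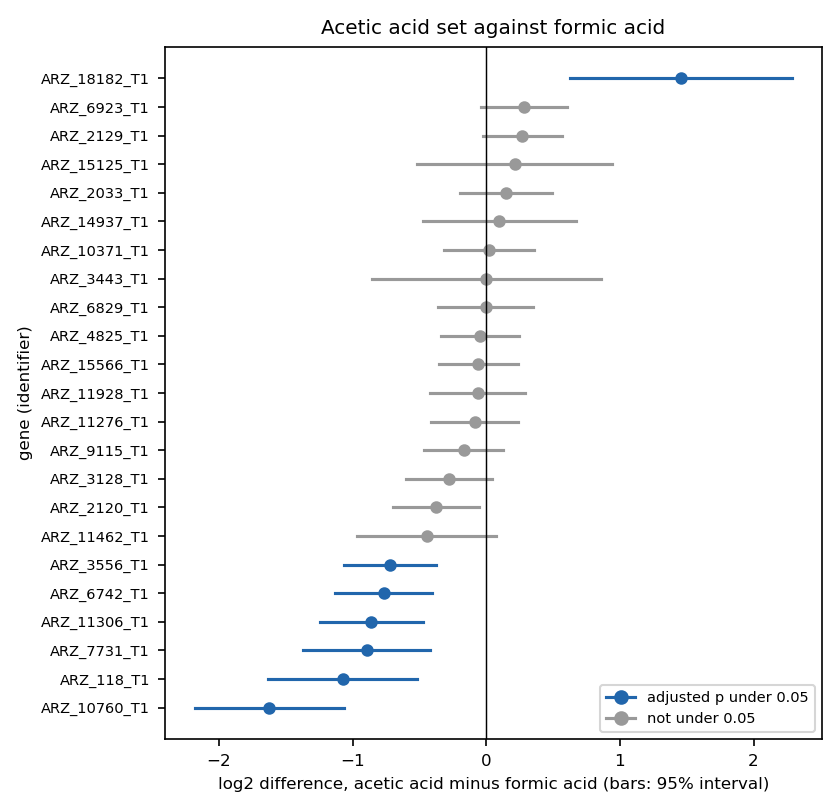
Log2 difference between acetic acid and formic acid for each of the 23 genes (x axis, positive where acetic acid was higher), with 95% intervals from the edgeR fit. The 7 called genes are in blue, from ARZ_10760_T1 at -1.62 to ARZ_18182_T1 at 1.46, and the intervals of the 16 grey genes lie between -0.96 and 0.94.

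With the 5 other inhibitors the same genes had ratios of either sign. The rule limits these changes to the size of the larger acid change and leaves their direction free, so they are a description too. In 13 members all 5 other ratios were within 1 of 0, and in 4 members within 0.5. Ratios were below 0 with all 7 inhibitors in 6 members, and 17 were above 0 with at least 1. Calls of edgeR's quasi-likelihood test against each group's own control were 11 for furfural (2 higher, 9 lower), 47.8% of the members beside 34.3% of all genes, and 6 for HMF (3 higher, 3 lower), 26.1% beside 8.45%. They were 9 for vanillin (4 higher, 5 lower), 39.1% beside 19.2%, and 5 for 4-hydroxybenzaldehyde (1 higher, 4 lower), 21.7% beside 8.11%. For syringaldehyde they were 11 (3 higher, 8 lower), 47.8% beside 24.1%. The rule used these contrasts too, and nothing is read from the shares. Single libraries moved these counts: the furfural count was 7 without furfural replicate 2, and the syringaldehyde count was 7 without phenolic aldehyde control replicate 2 and 14 without syringaldehyde replicate 2. The vanillin count was 3 or 4 without any 1 of its 4 libraries, with no member called lower, and the 4-hydroxybenzaldehyde count was 1 or 2.

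**Figure D4:**
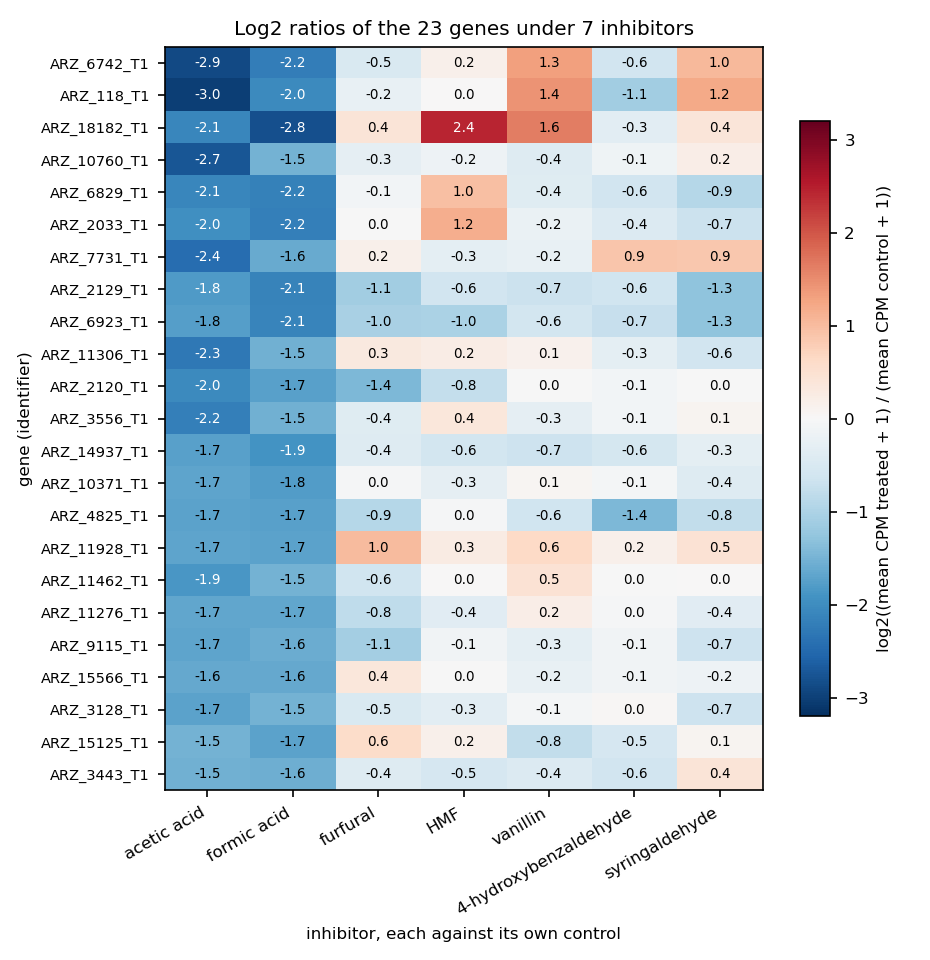
Log2 ratios of the 23 genes (rows, ordered by the mean of the acid ratios) with each of 7 inhibitors against its own control (columns); blue is lower and red higher than the control. The acid columns run from -3.01 to -1.51 because the rule chose them, and the other 5 columns hold both signs, up to 2.45 for ARZ_18182_T1 with HMF.

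Some members were higher under another inhibitor. ARZ_18182_T1 had 20.4 and 21.8 CPM with HMF and 4.40 and 4.28 CPM with furfural, against 4.18 and 1.90 CPM in the furan control. It was also at 11.7 and 15.2 CPM with vanillin, against 3.56 and 3.76 CPM in the phenolic aldehyde control. Its HMF and vanillin libraries were above every control library of their own experiments. ARZ_2033_T1 had 174 and 169.8 CPM with HMF, against 82.2 and 70.1 CPM in the furan control, and ARZ_6829_T1 had 184 and 157 CPM, against 99.0 and 76.1 CPM. ARZ_118_T1 had 208 and 177 CPM with vanillin and 149.5 and 181 CPM with syringaldehyde, against 79.4 and 62.5 CPM in the phenolic aldehyde control. It was lower with 4-hydroxybenzaldehyde, at 35.2 and 29.8 CPM. ARZ_6742_T1 followed it, with 125 and 124 CPM under vanillin and 75.9 and 130.2 CPM under syringaldehyde, against 57.3 and 42.2 CPM in that control. ARZ_7731_T1 was higher with 4-hydroxybenzaldehyde, at 336 and 338 CPM, and with syringaldehyde, at 315 and 350.5 CPM, against 189 and 177 CPM in the control. ARZ_11928_T1 was higher with furfural, at 68.6 and 71.4 CPM, against 34.2 and 34.6 CPM in the furan control, and ARZ_15566_T1 had 69.6 and 69.8 CPM, against 47.9 and 59.8 CPM there. The calls of ARZ_18182_T1, ARZ_2033_T1 and ARZ_6829_T1 with HMF, of ARZ_118_T1 and ARZ_6742_T1 with vanillin, of ARZ_118_T1 with syringaldehyde and of ARZ_11928_T1 with furfural held without each library. Those of ARZ_6742_T1 and ARZ_7731_T1 with syringaldehyde were lost without phenolic aldehyde control replicate 2, that of ARZ_118_T1 with 4-hydroxybenzaldehyde without replicate 2 of that aldehyde, and that of ARZ_7731_T1 with 4-hydroxybenzaldehyde without any 1 library. The call of ARZ_15566_T1 was lost without either furfural library or furan control replicate 1.

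Of the members, 15 were called lower with other inhibitors, with between 1 and all 5 of them. ARZ_2129_T1 and ARZ_6923_T1 were called lower with all 5 other inhibitors, the only members of which this was so. ARZ_2129_T1 had 25.6 and 22.0 CPM with furfural and 39.7 and 28.1 CPM with HMF, against 55.4 and 49.7 CPM in the furan control. ARZ_6923_T1 had 19.5 and 16.9 CPM with furfural and 19.4 and 17.3 CPM with HMF, against 40.0 and 36.6 CPM there. Their lower calls with vanillin and 4-hydroxybenzaldehyde were lost when any 1 of the libraries compared was left out, and that of ARZ_2129_T1 with HMF without either furan control library or HMF replicate 4. With syringaldehyde ARZ_2129_T1 had 28.1 and 44.3 CPM and ARZ_6923_T1 32.0 and 52.7 CPM, against 93.4 and 84.9 CPM and 112 and 96.7 CPM in the phenolic aldehyde control. ARZ_2120_T1 was lower with furfural, at 48.7 and 35.4 CPM, and with HMF, at 66.1 and 69.5 CPM, against 124 and 106 CPM in the furan control. The HMF call was lost without furan control replicate 1. The 3 phenolic aldehyde ratios of this gene were between -0.10 and -0.02. ARZ_4825_T1 had its lowest other ratio with 4-hydroxybenzaldehyde, at 50.1 and 52.2 CPM, against 147 and 134 CPM in the control, and that call held without each library. ARZ_15125_T1 had 1.84 and 2.33 CPM with vanillin, against 4.27 and 4.32 CPM, a call lost without any 1 library. In all, 15 members were called lower and 8 higher with at least 1 other inhibitor, 4 of them in both directions (ARZ_118_T1, ARZ_2033_T1, ARZ_6742_T1 and ARZ_6829_T1). ARZ_3443_T1, ARZ_3556_T1, ARZ_10371_T1 and ARZ_10760_T1 were called with none of the 5. The shares of all genes called with at least 1, with all or with none of the 5 were not counted. These numbers of members are therefore a description, and nothing is read from them.

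Direct comparisons within the furans and the phenolic aldehydes were not used by the rule, although it limited the ratios of their groups against the controls. Calls among the members are given beside those of all genes, which were not matched for level. The members' median in the weak acid control was 146 CPM, beside 16.0 for all identifiers. No excess over a share of all genes is therefore read as a trait of the members, here or for the phenolic aldehydes. All pairs were compared at the same time and at a dose matched in g/L, not in molar terms. In all, 4 such pairs were run, each with p-values adjusted over all genes of its comparison. Furfural and HMF are both furan aldehydes, and HMF carries an added hydroxymethyl group. Furfural against HMF gave 14 calls of 23, 3 higher and 11 lower with furfural, 60.9% of the members beside 34.2% of all genes. The count was 7 without furfural replicate 2. ARZ_18182_T1 was lower with furfural by -2.22 ± 0.28 on the log2 scale (edgeR adjusted p = 1.96e-06) and ARZ_2033_T1 by -1.13 ± 0.13 (edgeR adjusted p = 7.31e-07). ARZ_11928_T1 was higher with furfural by 0.82 ± 0.14 (edgeR adjusted p = 9.59e-05). These 3 calls held without each library in turn. ARZ_7731_T1, at 475 and 497 CPM with furfural and 328 and 368 CPM with HMF, was higher by 0.54 ± 0.13 (edgeR adjusted p = 0.00331), a call lost without furfural replicate 2. The intervals of the 9 members not called ran from -0.79 to 1.34.

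Vanillin carries a methoxy group that 4-hydroxybenzaldehyde lacks, and syringaldehyde carries a pair of them. Vanillin against 4-hydroxybenzaldehyde gave 5 calls, 4 higher and 1 lower, 21.7% of the members beside 17.5% of all genes. That share is close to the background and not a result particular to these genes. The members' share was 39.1% for syringaldehyde against 4-hydroxybenzaldehyde. Syringaldehyde against 4-hydroxybenzaldehyde gave 9 calls, 5 higher and 4 lower, beside 21.3%, a count that was 2 without either 4-hydroxybenzaldehyde library and 4 without syringaldehyde replicate 1. ARZ_118_T1 was higher with vanillin by 2.52 ± 0.17 (edgeR adjusted p = 2.60e-06) and with syringaldehyde by 2.32 ± 0.17 (edgeR adjusted p = 1.79e-06). ARZ_6742_T1 was higher by 1.90 ± 0.21 with vanillin (edgeR adjusted p = 0.000130) and by 1.63 ± 0.21 with syringaldehyde (edgeR adjusted p = 0.000225). These 4 calls held without each library. ARZ_18182_T1 was higher with vanillin than with 4-hydroxybenzaldehyde by 2.28 ± 0.27 (edgeR adjusted p = 0.000243), and ARZ_7731_T1 was lower by -1.16 ± 0.20 (edgeR adjusted p = 0.00273), at 122 and 189 CPM with vanillin and 336 and 338 CPM with 4-hydroxybenzaldehyde. These calls held as well. With syringaldehyde ARZ_3128_T1 was lower by -0.76 ± 0.20 and ARZ_2129_T1 by -0.69 ± 0.17 (edgeR adjusted p = 0.0202 and 0.0140), and both calls were lost without either 4-hydroxybenzaldehyde library or syringaldehyde replicate 1.

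Vanillin against syringaldehyde gave 2 calls, 8.7% of the members beside 4.74% of all genes, and nothing is read from so few calls. ARZ_18182_T1 was higher with vanillin by 1.38 ± 0.25 (edgeR adjusted p = 0.00730), and ARZ_7731_T1 was lower by -1.12 ± 0.20 (edgeR adjusted p = 0.00599). Each call was lost without 1 of the vanillin libraries. The count was 1 without vanillin replicate 1 and 11 without syringaldehyde replicate 2, so the number of members that differ between these aldehydes is not fixed by these libraries. The intervals of the 21 members not called ran from -2.14 to 1.24.

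Outside the acids, pairs of members ranged from opposed to closely alike. Levels were taken as log2(CPM + 1), each library minus the mean of its own control, and the 253 pairs of members were compared by Pearson's r over the 10 treated libraries without acids. The median r was 0.05, from -0.83 to 0.99, and 4 pairs reached 0.9. These points share control means, duplicates and depth. The rule also limits the size of changes outside the acids, and other pairs of genes were not compared over these 10 libraries. The values are therefore a description. Each r over all 14 treated libraries, given beside it below, also takes in the acid libraries. The rule set every member low there, which can raise r between any members. ARZ_2033_T1 and ARZ_6829_T1 were the most alike, with r = 0.989 over those 10 libraries and 0.996 over all 14 treated ones. Yet the CPM of ARZ_6829_T1 over that of ARZ_2033_T1 ran from 0.926 to 2.36 across libraries, near its low end in the furan experiment and higher in the others. ARZ_118_T1 and ARZ_6742_T1 had r = 0.936 and 0.979, and the CPM of ARZ_6742_T1 over that of ARZ_118_T1 ran from 0.507 to 1.26. ARZ_2129_T1 and ARZ_6923_T1 had r = 0.810 and 0.950, with a ratio of ARZ_6923_T1 over ARZ_2129_T1 from 0.489 to 1.34. Whether any of these pairs shares near-identical sequence is not known here, and if so reads could be split between copies. The numbers in the identifiers do not place the members side by side: no 2 members were within 2 of each other, and the smallest difference was 9, between ARZ_2120_T1 and ARZ_2129_T1.

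**Figure D5:**
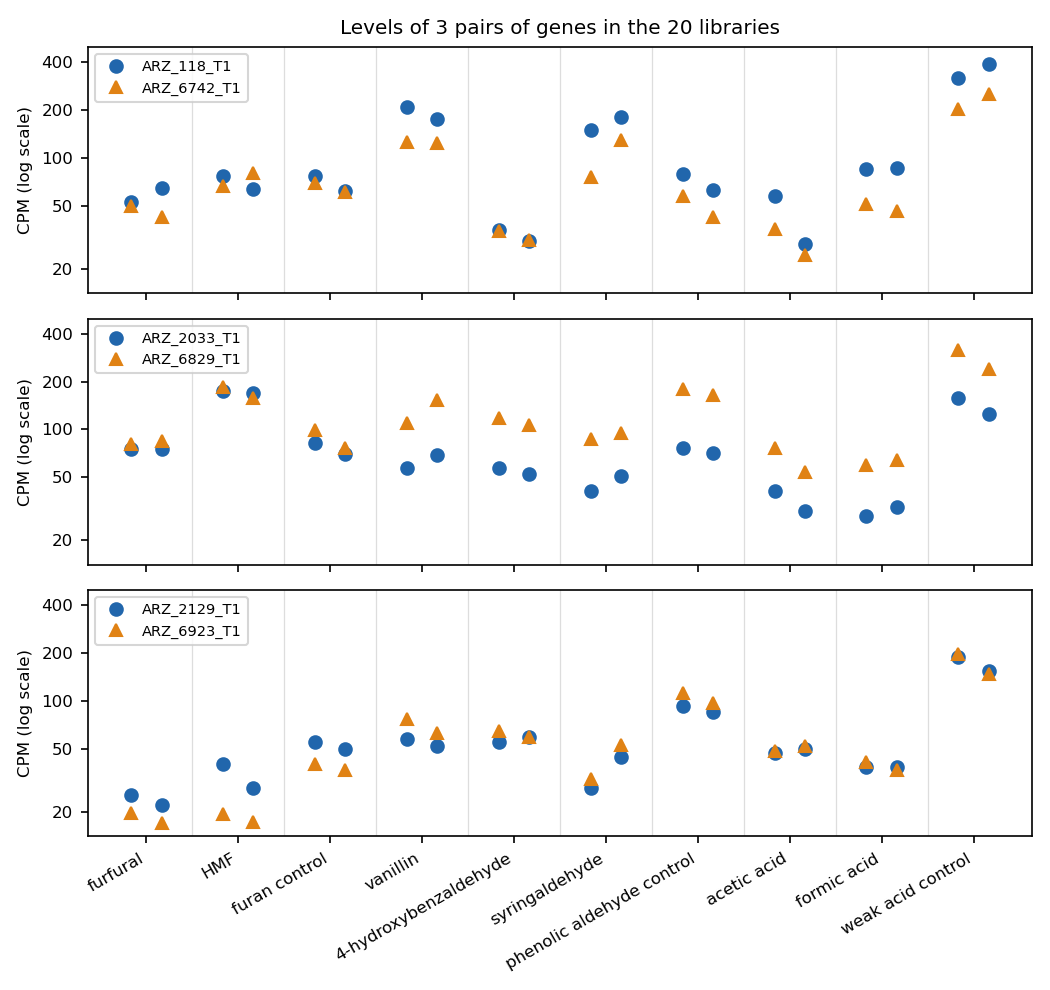
CPM (log axis) of 3 pairs of the 23 genes in all 20 libraries, 1 panel per pair, groups along the x axis with 2 libraries each. Within a panel the genes largely go up and down together, and the gap between ARZ_2033_T1 and ARZ_6829_T1 is narrow in the furan libraries and wider in the rest, with ratios from 0.926 to 2.36.

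Over the whole table, the gene most like each of the 5 members with the lowest acid ratios was found by the same r over the 14 treated libraries. For ARZ_118_T1 it was ARZ_2832_T1 (r = 0.987), which is not a member and had acid ratios of -0.87 with acetic acid and -0.47 with formic acid. For ARZ_6742_T1 it was ARZ_118_T1, and for ARZ_6829_T1 it was ARZ_2033_T1. For ARZ_18182_T1 it was ARZ_12937_T1 (r = 0.964), with acid ratios of -1.34 and -2.56, and for ARZ_10760_T1 it was ARZ_15279_T1 (r = 0.963), with -1.21 and -0.65. This r takes in the acid libraries that the rule used, and it does not depend on the size of a change. A gene of like pattern can therefore have smaller acid ratios, and nothing is read from these matches.

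At the threshold itself, ARZ_3128_T1 (-1.71 with acetic acid and -1.51 with formic acid), ARZ_15125_T1 (-1.52 and -1.71) and ARZ_11462_T1 (-1.86 and -1.52) were the members nearest inside. ARZ_2729_T1 (-1.91 and -1.497), ARZ_1851_T1 (-1.57 and -1.48) and ARZ_1797_T1 (-1.47 and -1.47) were the genes nearest outside.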

How the data were processed

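The authors deposited 3 tables of raw read counts per identifier, 1 for each experiment. Per the labels, RNA was extracted with Trizol and sequenced as Ion Proton libraries. The aligner is not given in the sources used here, nor is the counting tool. Submitters' processing notes name Sscrofa 10.2, an assembly of the pig, to which ARZ identifiers do not belong. None of the identifiers matched a RefSeq table of 9642 genes from another strain.

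An edgeR 4.0.16 model (R 4.3.3) was fitted per table over all its groups: filterByExpr (16398, 17495 and 16714 genes kept for furans, phenolic aldehydes and weak acids), TMM scaling, robust two-sided quasi-likelihood F-tests and Benjamini-Hochberg adjustment over all genes. Standard errors came from the F statistics. The tests were tested on simulated data, for a comparison with the control in each experiment and not for the direct comparisons. Changes were set there only in genes with at least 10 CPM, and the outcome is not reported here. A gene was called at an adjusted p under 0.05. Genes named for a call also had libraries that did not overlap between the groups. Named genes were those with the lowest mean acid ratio, the highest control level, the largest called differences in each comparison, the narrowest intervals between the acids and those nearest the threshold. Other genes were named after their values were seen. The members, lists and tests were chosen with earlier results of these data known.

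Alternatives were other pseudocounts and thresholds, TMM-scaled CPM, DESeq2 1.42.0 and its size factors, other filters, fits of only the groups compared, a replicate block and leaving out each library.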

Additional observations from a re-analysis of the deposited data

How the results depend on the processing

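The rule chose 27 genes with a pseudocount of 0.5 CPM, 15 with 5 CPM, 16 with TMM-scaled CPM, 178 at a threshold of -1 and 4 at -2, and 22 to 28 without each weak acid library in turn. All 15 genes chosen with 5 CPM and all 16 chosen with TMM-scaled CPM were among the 23 members, so the other members dropped out there. Leaving out a weak acid library made some members drop out, except for acetic acid replicate 1, and other genes came in each time. Chosen after seeing the data, the furan control in place of the weak acid control gave 57 genes and the phenolic aldehyde control 339. The count of members at least 2-fold above both other controls was 11, with 14 under TMM scaling over all 20 libraries and 10 to 14 without each control library. Fits of only the groups compared gave 9 members for 4-hydroxybenzaldehyde, 8 for vanillin against 4-hydroxybenzaldehyde and 4 for syringaldehyde against 4-hydroxybenzaldehyde, and DESeq2 gave 5 for vanillin against syringaldehyde. Without each library of the comparison, members called numbered 7 to 11 for furfural, 4 to 8 for HMF, 7 to 13 for furfural against HMF, 3 to 4 for vanillin, 1 to 2 for 4-hydroxybenzaldehyde, 7 to 14 for syringaldehyde, 4 to 5 for vanillin against 4-hydroxybenzaldehyde, 2 to 12 for syringaldehyde against 4-hydroxybenzaldehyde, 1 to 11 for vanillin against syringaldehyde, 3 to 7 for acetic acid against formic acid, and 23 for each acid against its control. Such a fit takes the spread of the remaining library to be that of the other groups. The cause of these shifts was not tested. The 23 calls for each acid against its control were largely set by the rule, which used those contrasts. Between the acids, the difference of ARZ_4825_T1, which was not called, passed 0 without acetic acid replicate 1 (0.01) or formic acid replicate 1 (0.03). The 7 called differences kept their sign without each library, that of ARZ_3556_T1 running from -0.92 to -0.51. Same-numbered libraries had correlations of their deviations from -0.13 to 0.17, and the labels do not say what a number marks, so the numbers are not taken to pair libraries. With the replicate block, 7 members were called for acetic acid against formic acid, 6 for vanillin, 4 for 4-hydroxybenzaldehyde, 11 for syringaldehyde, 8 for syringaldehyde against 4-hydroxybenzaldehyde and, with only the 2 groups, 15 for furfural. With 2 libraries per group and few reads for ARZ_3443_T1, ARZ_15125_T1 and ARZ_18182_T1, small differences between the acids were not detectable for those genes.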

Other observations

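The 6 genes that passed both acid thresholds but were left out by the rule had their largest ratio with another inhibitor. ARZ_15400_T1 had acid ratios of -2.90 with acetic acid and -1.95 with formic acid, beside 5.74 with vanillin, and ARZ_9991_T1 had -3.10 and -2.02 beside 4.08 with vanillin. ARZ_2780_T1, ARZ_9332_T1 and ARZ_9686_T1 likewise had ratios of 2.67, 2.61 and 2.16 with vanillin. These 5 genes thus had higher levels under vanillin than in the phenolic aldehyde control and lower levels under both acids than in theirs. Among the members, ARZ_18182_T1, ARZ_118_T1, ARZ_6742_T1 and ARZ_11928_T1 were called higher with vanillin, with ratios of 1.63, 1.43, 1.31 and 0.65. Their weak acid control means were above both other controls, for ARZ_15400_T1 237 CPM, against 29.9 CPM in the furan control and 46.7 CPM in the phenolic aldehyde control. ARZ_7874_T1 was lower with every inhibitor, at -3.60 with furfural, and had 39.1 CPM in the weak acid control, against 58.1 CPM in the phenolic aldehyde control.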
